A study of Mus musculus with 23 samples.

Results

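Gene expression in the left ventricle was compared between mice that breathed e-cigarette vehicle aerosol and mice that breathed filtered air, both from 3 weeks of age. All 3 vehicle libraries and all 4 air libraries of that starting age were used, 7 of the 23 libraries in the series, with every gene in the table as a possible result. The mice were of the inbred strain FVB, exposure ran for 3 months (4 hours on each of 5 days a week), and the ventricle, the main pumping chamber, was frozen and its total RNA sequenced. No allele, transgene or other agent is given for these 2 groups, and the labels state neither sex nor cage. The vehicle is the carrier liquid without nicotine, commonly a mix of propylene glycol and glycerin. A nicotine group of the same starting age (4 libraries) and the air and vehicle groups that started at 3 months (4 each) were used for comparison. Libraries keep the numbers of the labels, so the air libraries are 1, 2, 4 and 5 and the vehicle libraries 1, 2 and 4. The labels do not say that each library came from a separate animal, so the tests see the spread between libraries, and part or all of that spread may be technical.

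The ventricular muscle cell burns mainly fatty acids. These enter mitochondria through the carnitine shuttle, are shortened by beta-oxidation and feed the tricarboxylic acid cycle, while pyruvate from glucose enters the same cycle through the pyruvate dehydrogenase complex, which the kinase Pdk4 switches off. Capillary endothelium, resting on a basement membrane built around the collagen IV chains of Col4a1 and Col4a2, lies beside nearly every muscle cell. Aerosolised glycols and their aldehyde products are handled by dehydrogenases and by the antioxidant genes that the factor NRF2 controls.

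The 7 libraries did not divide cleanly by exposure. Their totals ran from 12994778 to 17600406 counts, and ventricular muscle markers were abundant in all of them. On the first principal component of the 500 most variable genes, which held 61.1% of the variance, air libraries 1 and 5 lay at -35.1 and -27.2, vehicle libraries 1 and 2 at 36.2 and 20.2, and air libraries 2 and 4 (2.43 and 4.08) beside vehicle library 4 (-0.61). The common biological coefficient of variation, the replicate spread beyond counting error, was 0.223 in these air libraries and 0.296 in these vehicle libraries, against 0.101 to 0.109 in the groups that started at 3 months.

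**Figure D1:**
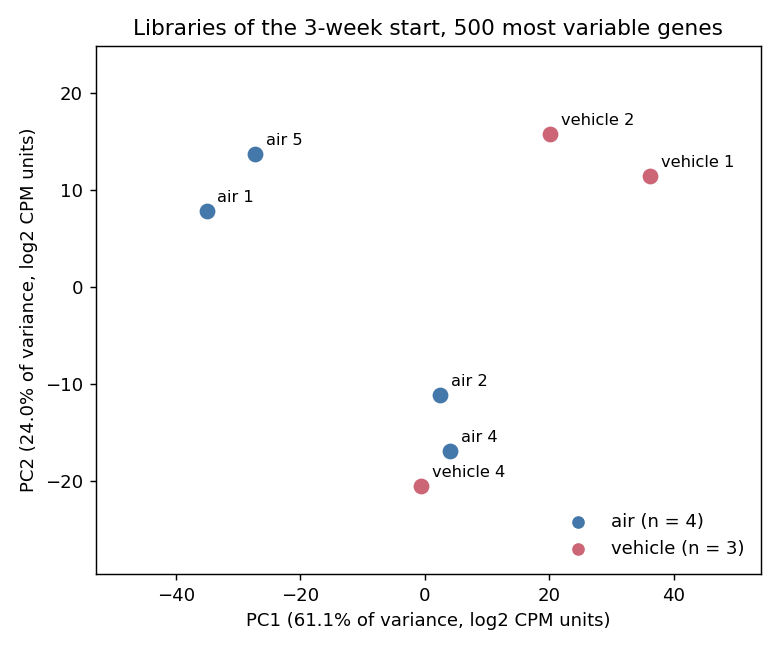
Principal components of the 7 libraries, from log2 CPM of the 500 most variable genes. Each point is 1 library, with air in blue and vehicle in red. Vehicle library 4 sits beside air libraries 2 and 4, while air libraries 1 and 5 and vehicle libraries 1 and 2 stand at opposite ends of the first axis.

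Levels below are counts scaled by library size with TMM factors (CPM), in library order, and differences are log2 fold changes of vehicle minus air ± SE. "Rose" and "fell" mean an adjusted p under 0.05 in edgeR's quasi-likelihood test, fitted over all 23 libraries. In that fit 2509 of 15500 genes passed (16.2%), of which 1437 rose (9.27%) and 1072 fell (6.92%). Counts of calls in the gene lists below are to be read against these shares. The fit takes its spread from all groups, including the tighter older ones. With the 7 libraries alone edgeR called 0 genes, with 2363 under 0.05 before adjustment and a smallest adjusted p of 0.306, and with the 11 libraries of the 3-week start 0 passed (3267 unadjusted, smallest 0.202). Among the 2509 genes, 2411 had the same sign of the estimate with the 7 libraries alone. That fit tested 14710 genes, and a gene its filter removed is not among the 2411. Both fits compare the same 7 libraries, so a shared sign was nearly fixed beforehand and is no separate support.

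Single libraries weighed heavily on these calls. Without air library 1 or vehicle library 1 edgeR called no gene (3972 and 2545 had an unadjusted p under 0.05), and without vehicle library 2 or air library 5 there were 107 and 170, against 6969 without vehicle library 4. DESeq2 over all 23 libraries called 3419 genes, 1560 higher and 1859 lower, and limma with quality weights, which gave vehicle library 4 the lowest weight of the 7 (0.151), called 5840. Vehicle library 4 lay inside the range of the air libraries for 1581 of the 2509 genes (63%), against 116 for vehicle library 2 and 35 for vehicle library 1. Over all 15500 genes tested the shares were 66.9% for vehicle library 4, 32.6% for library 2 and 26.8% for library 1. The 2509 genes were selected by values of these same libraries. Because single libraries weighed on the calls, the median of each pathway list below is also given in 2 reduced fits. The first is without air libraries 1 and 5 and the second without vehicle libraries 1 and 2, always in that order. In the second the lone vehicle library was assumed to vary like the other groups. In both fits edgeR called 0 genes, with 2408 and 696 under 0.05 before adjustment.

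Some genes separated the groups in all 7 libraries. Every vehicle library was above every air library for 784 genes (5.06%), and below for 650 (4.19%). Among the genes that rose the share was 433 of 1437 (30.1%), and among those that fell 343 of 1072 (32%). These shares describe genes that the same values selected.

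The clearest higher gene was Upf2, a core factor of nonsense-mediated decay, which degrades transcripts with premature stop codons. Its level was 34.3, 33.3, 32.6 and 31.7 CPM in air and 55.0, 50.4 and 44.8 CPM in vehicle. The air libraries were nearly equal and every vehicle library lay above them, a difference of 0.60 ± 0.09 log2 (adjusted p = 0.0141). With vehicle library 4 as the only vehicle library the difference was 0.46, and without air libraries 1 and 5 it was 0.58. Of 19 decay factors tested, Upf2 and Upf3b rose, 3 fell (among them Smg8, -0.46 ± 0.14, and Rnps1, -0.57 ± 0.17), and the median was -0.07 log2, against 0.02 over all genes tested (reduced fits -0.10 and -0.03).

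Upf2 was joined by several nuclear genes. Prpf39, a splicing factor of the U1 particle, stood at 21.3, 29.9, 22.6 and 25.9 CPM in air and 58.6, 49.3 and 31.7 CPM in vehicle, without overlap (0.90 ± 0.16 log2). Ccnt2, a cyclin of the transcription elongation kinase, rose by 0.90 ± 0.16, Paxbp1 by 0.85 ± 0.16, Ccar1, a coactivator of cell cycle and apoptosis genes, by 1.02 ± 0.18, Phip by 1.15 ± 0.22 and Ankrd12 by 1.32 ± 0.21. For each of them vehicle library 4 was the lowest vehicle library and still above all air libraries, at 175, 131 and 64.6 CPM for Ccar1 against 63.5, 60.9, 59.4 and 59.9 CPM in air. Aim2, a sensor of cytosolic DNA, rose from 3.64, 4.93, 3.96 and 3.96 to 11.5, 8.60 and 6.55 CPM, on 57 to 157 counts a library (1.10 ± 0.20 log2). Scn7a, a sodium-sensing channel of the heart and nerve sheath, had 17.3, 21.0, 18.5 and 13.6 CPM in air and 31.6, 33.1 and 24.0 CPM in vehicle (0.75 ± 0.14, and 0.46 with vehicle library 4 alone).

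**Figure D2:**
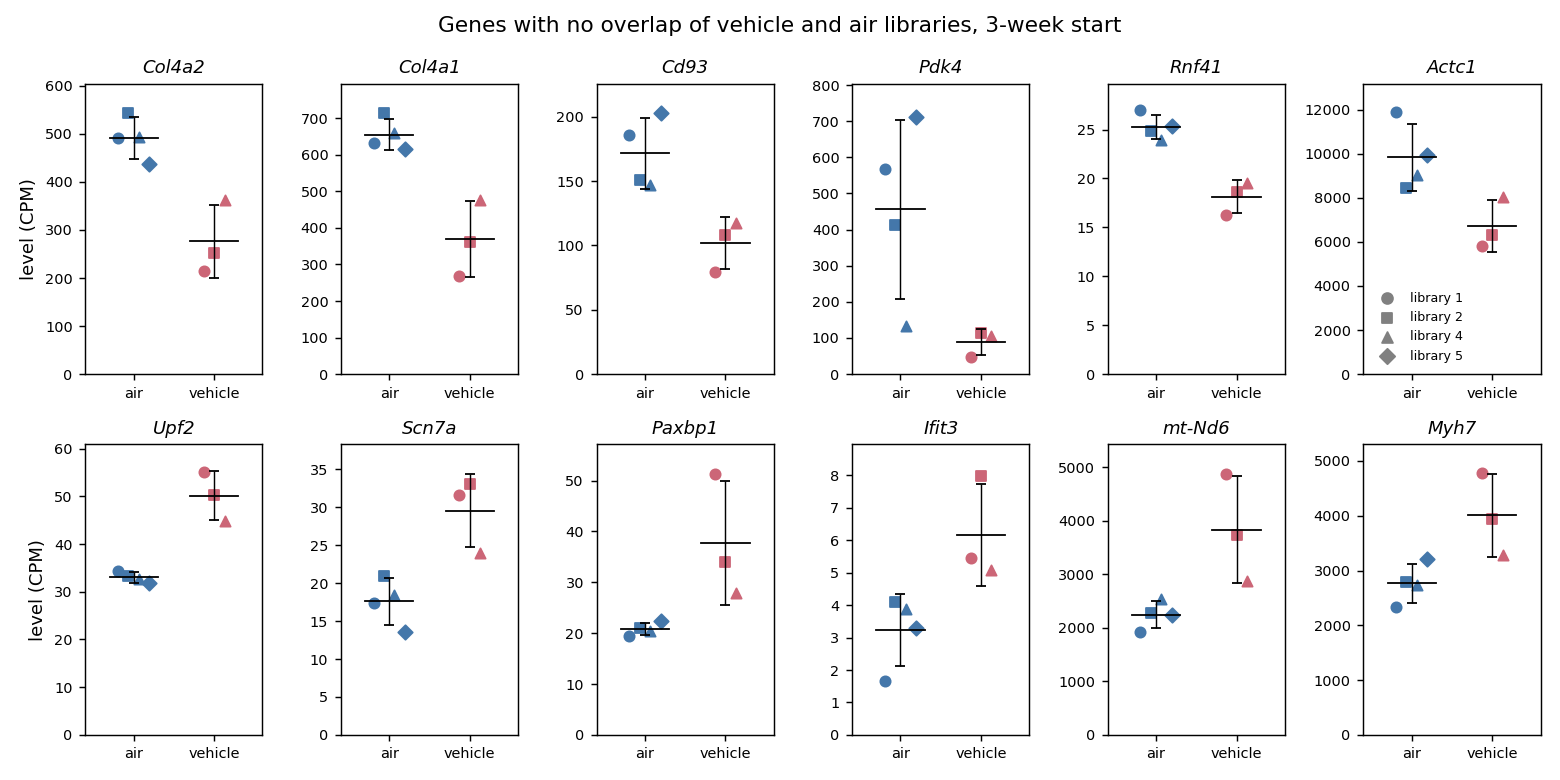
Level in CPM of 12 genes in each of the 7 libraries, with air in blue, vehicle in red and the symbol giving the library number. Black lines are group means and bars 1 SD (n = 4 air, n = 3 vehicle). The 6 genes of the upper row are lower and the 6 of the lower row higher in every vehicle library, and vehicle library 4 is the vehicle library nearest to the air range in all but Pdk4.

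The basement membrane collagens were lower. Col4a2 was at 492, 543, 493 and 437 CPM in air and 215, 253 and 362 CPM in vehicle, and Col4a1 at 632, 714, 660.2 and 616 CPM and 268, 363 and 475 CPM. Both fell without overlap, by -0.83 ± 0.15 and -0.83 ± 0.15 log2 (adjusted p = 0.0141 each). Their products assemble into 1 triple helix, and the genes stand head to head in the mouse genome. In RefSeq's GRCm38.p6 annotation their start sites are 21 bases apart on opposite strands, so that the 300-base windows around them share 78 bases. The differences were -0.92 and -0.92 without air libraries 1 and 5, and -0.43 and -0.45 with vehicle library 4 as the only vehicle library.

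Across the 19 basement membrane genes tested, 5 fell and 1 rose, with a median of -0.18 log2 against 0.02 over all genes. Col15a1, of a collagen of vascular basement membranes, fell (-0.49 ± 0.14) and Lamb1 and Lamc1, laminin chains named here after their values were seen, also fell. Agrn, encoding the proteoglycan agrin, rose (0.68 ± 0.22), from 98.3, 147, 134 and 127 CPM to 294, 189 and 124 CPM, but vehicle library 4 lay inside the air range. The list's median was -0.25 without air libraries 1 and 5 and -0.07 without vehicle libraries 1 and 2.

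Interstitial matrix genes showed 6 of 33 lower and none higher (median -0.28, reduced fits -0.28 and -0.21). Col1a2, a chain of the main fibrillar collagen, was at 254, 231, 209 and 195 CPM in air and 119, 192 and 186 CPM in vehicle, without overlap (-0.42 ± 0.13). Col5a1, which sets fibril width, fell (-0.42 ± 0.13) with 1 vehicle library inside the air range. Col1a1 at -0.50 ± 0.20 (adjusted p = 0.0825) and Postn at 0.15 ± 0.27 (0.702), a matrix protein of activated fibroblasts, did not pass. Thbs1, the secreted glycoprotein thrombospondin, and Timp3, a metalloproteinase inhibitor, also fell, but their air values were split. Thbs1 stood at 742, 11.9, 6.94 and 689.8 CPM in air and 1.98, 20.4 and 5.29 CPM in vehicle, so that only air libraries 1 and 5 were high, and without those the difference went from -5.30 ± 1.20 to -0.07.

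Among 22 angiogenic and endothelial signalling genes 3 fell and none rose (median -0.03, reduced fits -0.25 and -0.04), where 6.92% of all genes tested fell. Cd93, an endothelial receptor of vessel sprouting, was at 186, 151, 147 and 203 CPM in air and 79.4, 108 and 118 CPM in vehicle. No value overlapped, the difference was -0.75 ± 0.13 log2, and it was -0.57 without air libraries 1 and 5 and -0.52 without vehicle libraries 1 and 2. Flt4, the receptor of lymphatic growth factors, and Notch1 also fell (-0.66 ± 0.18 and -0.57 ± 0.18). General endothelial markers did not fall together. Of 10 tested, Egfl7 and Fabp4 rose, none fell, and Pecam1 and Cdh5 were at -0.28 ± 0.12 (adjusted p = 0.0999) and -0.31 ± 0.15 (0.125). In bulk tissue fewer cells of a type and less RNA per cell cannot be told apart.

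Genes of fuel use were mostly lower in vehicle libraries 1 and 2, and a minority had all 3 vehicle libraries below every air library. The glycolysis list differed, since the mean of its genes was lower in library 4 too. Vehicle libraries 1, 2 and 4 lay there at -0.15, -0.24 and -0.18 log2 from the air mean. Pdk4 was at 567, 412, 132 and 711 CPM in air and 46.5, 113 and 106 CPM in vehicle. Air library 4 was the lowest of its group and still above all 3 vehicle libraries, and the difference was -2.37 ± 0.44 log2 (adjusted p = 0.0141), -1.65 without air libraries 1 and 5, and -2.09 with vehicle library 4 alone. Of the 14 genes of pyruvate dehydrogenase and its regulators 6 fell and none rose, with a median of -0.54 log2. Beside Pdk4 these included structural subunits of the complex, Dlat (-0.72 ± 0.22), Pdhx (-0.54 ± 0.15) and Pdhb (-0.33 ± 0.10). Pdhx was the other member without overlap, at 211, 145, 152 and 158 CPM in air and 96.8, 103 and 144 CPM in vehicle. The list's median was -0.31 without air libraries 1 and 5 and -0.05 without vehicle libraries 1 and 2.

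The carnitine shuttle had 4 of 6 genes lower and none higher (median -0.47, reduced fits -0.31 and -0.11). Cpt1b, the rate-setting outer membrane transferase of muscle, was at 137, 96.0, 95.9 and 104 CPM in air and 51.1, 47.9 and 98.7 CPM in vehicle (-0.72 ± 0.20). Vehicle libraries 1 and 2 were far under the air range and library 4 was inside it. Cpt2, the inner membrane transferase, did not overlap, at 254, 192, 191 and 213 CPM against 149, 141 and 179 CPM (-0.44 ± 0.11), and the carrier Slc25a20 and the acetyltransferase Crat fell (-0.58 ± 0.15 and -0.49 ± 0.14).

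Mitochondrial beta-oxidation had 11 of 15 genes lower and 1 higher (median -0.36), and no member separated the groups. Acadvl, the first enzyme of the spiral for long chains, was at 1013, 807, 823 and 1021 CPM in air and 556, 523 and 844 CPM in vehicle (-0.51 ± 0.13). Hadha, of the trifunctional protein, was at 1825, 1446, 1473 and 1725 CPM and 810.2, 841 and 1546 CPM (-0.60 ± 0.16). In both, vehicle library 4 read close to air libraries 2 and 4. The electron acceptor gene Etfb rose, from 226, 255, 243 and 270.0 CPM to 650.2, 524 and 233 CPM in the 3 vehicle libraries (0.92 ± 0.22), while its partner Etfdh fell (-0.75 ± 0.20). The list's median was -0.27 without air libraries 1 and 5 and -0.07 without vehicle libraries 1 and 2.

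The tricarboxylic acid cycle gave 12 of 18 genes lower and none higher (median -0.36, reduced fits -0.26 and -0.09). Cs, citrate synthase, was at 1620.3, 1115, 1168 and 1388 CPM in air and 708, 625 and 1200.3 CPM in vehicle (-0.65 ± 0.18). Sdhd, an anchor of succinate dehydrogenase, separated the groups, at 475, 411, 424 and 453 CPM against 313, 296 and 401 CPM (-0.39 ± 0.10). Without overlap were also Idh3b, Fh1 and Mdh1, named after their values were seen, so 4 of 18 in all. Of all genes tested 4.19% had every vehicle library below every air library. Glycolysis had 8 of 21 lower and none higher, with a median of -0.17 (reduced fits -0.10 and -0.15). Its committed enzymes Pfkl and Pfkp fell without overlap, Pfkl from 273, 199, 223 and 233 CPM to 164, 176 and 179.9 CPM (-0.42 ± 0.10, and -0.35 with vehicle library 4 alone). Pgam1 was at -0.63 ± 0.17 and the muscle isoform Pfkm at -0.47 ± 0.13.

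Each glycogen and lipid list had fewer calls than the tricarboxylic acid cycle or glycolysis. Of all genes tested 9.27% rose and 6.92% fell. Glycogen genes had 3 of 12 lower, the phosphorylases Pygm (-0.61 ± 0.16) and Pygb (-0.70 ± 0.20) and the synthase Gys1 (-0.73 ± 0.20), and none higher (median -0.52, reduced fits -0.34 and -0.05). Of 18 targets and regulators of PPAR-alpha, the nuclear receptor for fatty acids, 2 fell and none rose (median -0.38, reduced fits -0.27 and -0.11), Pdk4 and the estrogen-related receptor gene Esrrb (-0.73 ± 0.23). Of 11 genes of fatty acid uptake and activation 3 fell and 1 rose (median -0.25, reduced fits -0.29 and -0.08). Acsl1, which activates long-chain fatty acids, fell (-0.87 ± 0.29), with 1186, 684, 690.3 and 729 CPM in air and 296, 279 and 777 CPM in vehicle, so that vehicle library 4 exceeded air libraries 2, 4 and 5. Plin5, which ties lipid droplets to mitochondria, fell without overlap (-0.46 ± 0.14, and -0.24 with vehicle library 4 alone), the thioesterase gene Acot2 fell (-0.48 ± 0.15), and Fabp4, a fatty acid carrier of endothelium and fat cells, rose (0.73 ± 0.22). Among 15 genes of glycerol handling and lipolysis (median -0.39, reduced fits -0.18 and -0.06), 1 rose and none fell: G0s2, an inhibitor of the lipase that opens droplets, from 8.57, 45.5, 34.4 and 11.3 CPM to 71.1, 73.3 and 37.8 CPM (1.28 ± 0.42). Its air values ran apart, low in libraries 1 and 5.

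**Figure D3:**
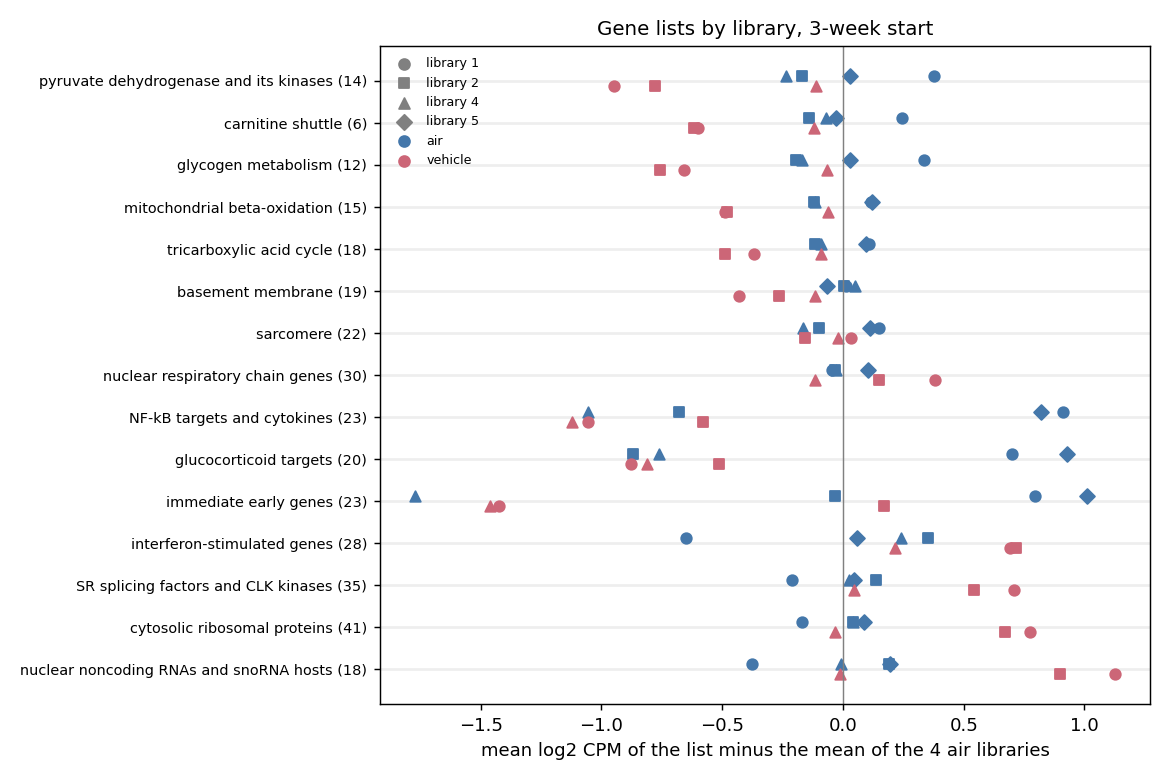
Mean log2 CPM of 15 gene lists in each library, as the difference from the mean of the 4 air libraries. Blue is air, red is vehicle, the symbol gives the library number and brackets give the genes tested. For fuel lists, splicing factors, ribosomal proteins and noncoding RNAs vehicle libraries 1 and 2 stand away from the rest, and for NF-kB, glucocorticoid and immediate early genes air libraries 1 and 5 do.

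Respiratory chain genes did not follow the fuel genes. Of 30 nuclear-encoded subunits 6 rose and 2 fell, and the median was 0.19 log2 (reduced fits 0.21 and -0.11). Small subunits were among those that rose, Ndufa1 of complex I (0.78 ± 0.20) and the muscle isoform Cox8b of complex IV (0.63 ± 0.18), while Uqcrc2 of complex III (-0.52 ± 0.14) and Atp5a1 of the ATP synthase (-0.33 ± 0.10) fell. With the exonic length offset the list had 1 gene higher and 4 lower and a median of -0.01. Of 13 mitochondrially encoded genes mt-Nd4 and mt-Nd6 rose and none fell (median 0.23, reduced fits 0.19 and 0.02), and with the length offset neither direction had a call. mt-Nd6 was at 1919, 2271, 2542 and 2232 CPM in air and 4873, 3739 and 2876 CPM in vehicle, without overlap (0.77 ± 0.15, and 0.38 with vehicle library 4 alone). It lies on the strand opposite to most mitochondrial genes, and whether counting used strand is not stated, so its reads may not be told apart from those of transcripts opposite to it. Mitochondrially encoded genes took 8.35 to 8.98% of counts in air and 7.06, 10.04 and 9.72% in vehicle libraries 1, 2 and 4 (exact permutation test, two-sided p = 0.914, where 35 arrangements allow no p under 0.0571).

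Sarcomere genes split evenly, with 6 of 22 higher and 6 lower (median -0.12, reduced fits 0.09 and -0.05). Actc1, cardiac actin, was at 11888, 8459, 9049.6 and 9923 CPM in air and 5819.6, 6298 and 8042.9 CPM in vehicle, and fell without overlap (-0.55 ± 0.11, and -0.27 with vehicle library 4 alone). Myh6, the fast adult myosin heavy chain, fell (-0.43 ± 0.14), from 50304, 37885, 35920.0 and 44927 CPM to 29080.0, 25247 and 39727 CPM, with vehicle library 4 inside the air range. Myh7, the slow myosin that rises in stressed mouse hearts, was at 2327, 2789, 2744 and 3202 CPM in air and 4788, 3949 and 3285 CPM in vehicle. All vehicle libraries lay above air, library 4 by a narrow margin, and it rose by 0.53 ± 0.18 log2 (adjusted p = 0.0477). The short light chain Myl2 (0.65 ± 0.17) and the titin cap Tcap (0.75 ± 0.19) rose, and Xirp1, of intercalated discs, fell (-1.17 ± 0.29).

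Calls among calcium and channel genes are given beside the shares of all genes tested, of which 9.27% rose and 6.92% fell. Of 17 calcium cycling genes (median -0.25, reduced fits -0.07 and 0.01) Trdn, triadin of the release complex, rose (1.09 ± 0.22), and Casq2, the calcium store protein (-0.69 ± 0.19), and Jph2, which joins the membranes of the release unit (-0.56 ± 0.17), fell. Atp2a2, the pump that refills the store, was at 21551, 10416, 11435 and 13144 CPM in air and 4222, 4998 and 12510.0 CPM in vehicle. Vehicle library 4 was inside the air range, and the gene missed the threshold (-0.96 ± 0.34, adjusted p = 0.0532). Ion channels had 2 of 22 lower, among them Scn4b (-0.91 ± 0.28), and none higher (median -0.32, reduced fits -0.25 and -0.04). The alpha-1B adrenergic receptor gene Adra1b fell (-0.66 ± 0.20), from 41.2, 39.0, 37.6 and 35.7 CPM to 22.2, 15.6 and 34.9 CPM, the 1 call among 15 adrenergic, muscarinic and nicotinic receptors (median -0.21, reduced fits -0.20 and -0.05).

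Classical stress markers gave 4 of 15 lower and none higher (median -0.40, reduced fits 0.03 and -0.35). Rcan1, induced by calcineurin, fell (-1.11 ± 0.27), as did the sarcomere-linked Fhl2 (-0.55 ± 0.16), Flnc (-0.70 ± 0.22) and Fhl1 (-0.62 ± 0.20). The natriuretic peptide genes did not pass. Nppa was at 256, 121, 126 and 218 CPM in air and 95.3, 323 and 139.7 CPM in vehicle (0.04 ± 0.35, adjusted p = 0.934) and Nppb at -0.08 ± 0.27 (0.839), and the sign of both turned with the libraries in the fit. Atrial muscle markers were uneven beside them. The atrial light chain Myl7 read 33.6, 0, 0 and 0 CPM in air and 2.28, 68.3 and 0.0629 CPM in vehicle, so it was high in air library 1 and vehicle library 2, and the summed atrial list ran from 150 to 423 CPM in air and from 131 to 560 CPM in vehicle. The part of atrial tissue in these values was not tested. Acta1, skeletal actin, at -0.94 ± 0.40 (0.0964) and Ankrd1 at 0.33 ± 0.17 (0.159) did not pass either.

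Genes of protein synthesis and RNA processing were higher. Of 41 cytosolic ribosomal protein genes 31 rose and none fell, all 41 estimates were positive, and the median was 0.54 log2 against 0.02 over all genes. Rps14 was at 292, 364, 361 and 385 CPM in air and 814, 711 and 365 CPM in vehicle (0.84 ± 0.19), Rps18 at 0.80 ± 0.19, Rps9 at 0.71 ± 0.17 and Rps27 at 0.62 ± 0.15. In each, vehicle libraries 1 and 2 were well above air and library 4 was inside the air range. Every vehicle library exceeded every air library for 2 of the 41, Rpl5 and Rpl22, named after their values were seen. Over all genes tested that share was 5.06%. The median was 0.46 without air libraries 1 and 5 and -0.01 without vehicle libraries 1 and 2, and with the exonic length offset it was 0.34 and 24 genes rose. Ribosomal protein genes have many near-identical pseudogenes, and 150 of 551 pseudogenes tested also rose (27.2%), so their counts are uncertain where reads could be split.

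The factors that recognise exons, and the kinases that switch them, showed the same direction. Of 35 SR-type splicing factors and CLK kinases 15 rose and none fell (median 0.47). Rbm25 was at 108, 139, 127 and 129.8 CPM in air and 457, 319 and 129 CPM in vehicle (1.26 ± 0.25). Luc7l3, of the U1 particle, rose by 1.15 ± 0.23, and Clk1, the kinase that phosphorylates SR proteins, by 1.07 ± 0.22, from 59.8, 123, 106 and 84.3 CPM to 283, 192 and 115 CPM. Vehicle library 4 lay inside the air range for all 3 of these. The list's median was 0.30 without air libraries 1 and 5 and 0.05 without vehicle libraries 1 and 2.

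Nuclear noncoding RNAs and snoRNA host genes had 8 of 18 higher and none lower (median 0.72). Malat1, a nuclear speckle RNA, was at 882, 1238, 1112 and 1397 CPM in air and 3113, 2361 and 1032 CPM in vehicle (0.91 ± 0.23). Kcnq1ot1, the antisense RNA of an imprinted cluster, was at 8.14, 11.5, 11.1 and 11.1 CPM and 41.5, 31.0 and 12.3 CPM and did not overlap (1.43 ± 0.27, and 0.25 with vehicle library 4 alone), nor did Ftx (1.37 ± 0.31) and Snhg14 (1.26 ± 0.29). For Snhg14 the margin was very small, with 106 counts in vehicle library 4 and 127 in the deeper air library 2. Reads of antisense genes and of their partners may not be told apart here. The list's median was 0.63 without air libraries 1 and 5, -0.08 without vehicle libraries 1 and 2, and 0.48 with the exonic length offset, where 7 genes rose.

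These RNA groups moved with properties of whole libraries. Noncoding genes took 0.901 to 1.24% of counts in air, and 2.17, 1.82 and 1.16% in vehicle libraries 1, 2 and 4 (exact permutation test, two-sided p = 0.171). Of 1371 long noncoding genes tested 183 rose (13.3%) and 34 fell (2.48%), against 8.1% and 7.59% of 13471 protein-coding genes. The median exonic length was 3068 bases for genes that rose and 4623 for those that fell, against 4162 for the rest. Spearman's correlation between a gene's level and its exonic length, over the genes of a library, was 0.27 to 0.30 in air and 0.24, 0.24 and 0.30 in vehicle libraries 1, 2 and 4. The part of these library properties in the gene results was not tested.

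Few interferon-stimulated genes passed the threshold, all of them higher in vehicle, and the promoters of 2 of these, both carrying the interferon element, are shown here as the 250 bases upstream of the start site in RefSeq's GRCm38.p6 table. The capitals mark the core of the element, GAAA, any 2 bases and GAAA again, which reads in the reverse complement on the strand printed. Ifit3, an antiviral protein of the IFIT family, is at chr19:34583279-34583528 (+), and Stat2, a subunit of the interferon-activated factor that binds this element, is at chr10:128270248-128270497 (+).
Ifit3: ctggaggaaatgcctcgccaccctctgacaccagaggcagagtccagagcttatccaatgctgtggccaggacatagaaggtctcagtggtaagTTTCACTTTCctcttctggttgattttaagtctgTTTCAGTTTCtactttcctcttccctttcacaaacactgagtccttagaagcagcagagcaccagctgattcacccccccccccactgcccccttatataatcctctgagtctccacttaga
Stat2: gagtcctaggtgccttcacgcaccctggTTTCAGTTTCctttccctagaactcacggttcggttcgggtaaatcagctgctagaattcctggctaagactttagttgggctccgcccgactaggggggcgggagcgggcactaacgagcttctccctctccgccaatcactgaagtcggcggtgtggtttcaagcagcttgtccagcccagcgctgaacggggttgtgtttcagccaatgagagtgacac
The core, searched on both strands of the 300-base windows that include 50 bases after the start, was in 12 of the 20 interferon genes with a window and in 3.49% of all 27025 windows. These matches describe the sequence, and binding was not measured. The Pdk4 window held neither this core, nor the FOXO core GTAAACA, nor the PPAR repeat of AGGNCA with 1 base between its copies, which says only that these letters are not in that window.

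Of 28 interferon-stimulated genes tested 4 rose and none fell, against 9.27% of all genes tested that rose. All 28 estimates were positive, and the median was 0.48 log2. Ifit3 was at 1.67, 4.09, 3.89 and 3.29 CPM in air and 5.44, 7.98 and 5.10 CPM in vehicle, on 27 to 115 counts a library. All vehicle libraries lay above air (0.93 ± 0.26, 0.60 without air libraries 1 and 5, and 0.67 with vehicle library 4 alone). Stat2 was at 11.8, 26.4, 25.1 and 23.1 CPM and 52.9, 43.5 and 21.8 CPM (0.86 ± 0.26), Oas2, which makes the activator of an antiviral nuclease, at 1.17 ± 0.38, and Ifi27 at 0.67 ± 0.21. In these 3 vehicle library 4 fell inside the air range. Air library 1 was the lowest of the 7 in the list's mean, -0.65 log2 from the air mean, and the median was 0.22 without air libraries 1 and 5 and 0.18 without vehicle libraries 1 and 2.

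Inflammatory, immediate early and glucocorticoid-responsive genes had medians below 0, and here the air group itself was divided. Of 23 NF-kB targets and cytokines 9 fell and none rose (median -0.71), of 23 immediate early genes 4 fell (median -0.51), and of 20 glucocorticoid targets 7 fell and 1 rose (median -0.88). Ccl2, the monocyte chemokine, was at 25.8, 3.52, 2.499 and 34.2 CPM in air and 2.94, 2.84 and 1.45 CPM in vehicle. Atf3, a stress-induced factor, was at 141, 18.5, 3.68 and 99.1 CPM and 4.48, 15.8 and 4.15 CPM. In both genes air libraries 1 and 5 were high and air library 4 was as low as vehicle. Without vehicle libraries 1 and 2 the medians were -1.07, -1.43 and -0.92 for the 3 lists. With limma's quality weights they were -0.11, 0.54 and -0.16, so that the sign of the immediate early list turned, and there 2 of its genes were called higher and none lower. Those weights were 0.328, 1.41, 1.59 and 0.520 in air and 0.374, 2.49 and 0.151 in vehicle. The mean of the immediate early list lay at -1.43, 0.17 and -1.46 log2 from the air mean in vehicle libraries 1, 2 and 4. The part of the weights in the turned sign was not tested. Without air libraries 1 and 5 the medians were -0.16, 0.06 and 0.03, and Ccl2 went from -2.78 ± 0.78 to -0.37, Atf3 from -3.01 ± 0.76 to -0.51, the cell cycle inhibitor Cdkn1a from -3.10 ± 0.77 to -0.12 and the clock gene Per1 from -1.03 ± 0.30 to 0.01.

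For a few genes of this kind the estimate stayed well below 0 without air libraries 1 and 5, though no gene passed in that fit. Irs2, the insulin receptor substrate that FOXO factors induce, was at 261, 43.2, 12.1 and 229.8 CPM in air and 3.45, 14.3 and 12.5 CPM in vehicle, where air library 4 fell among the vehicle values (-3.75 ± 0.73, -1.49 without air libraries 1 and 5). The endothelial adhesion gene Sele had 220, 23, 19 and 91 counts in air and 6, 8 and 11 in vehicle, so all vehicle libraries were lower (-3.27 ± 0.73 log2, -1.16 without air libraries 1 and 5). Tnfaip2, an NF-kB target of endothelium, did not overlap, at 67.5, 44.1, 38.0 and 64.1 CPM and 27.0, 25.8 and 30.5 CPM (-0.94 ± 0.18, -0.59). Neutrophil markers moved with the 2 high air libraries. Their 8 genes summed to 0.892 to 12.2 CPM in air and 0.755 to 2.06 CPM in vehicle, Ly6g had no count in any of the 7 libraries, and S100a8 read 3.02, 0.0525, 0.139 and 1.95 CPM in air and 0.220, 0.0694 and 0 CPM in vehicle. The part of these cells in the inflammatory values was not tested.

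Defence genes that glycols and aldehydes could engage moved both ways. Of 29 NRF2 and antioxidant genes 3 rose and 6 fell (median -0.03, reduced fits -0.05 and -0.09). Txnrd1, thioredoxin reductase, fell from 101, 57.6, 64.3 and 83.2 CPM to 41.3, 39.4 and 59.1 CPM (-0.71 ± 0.17), with vehicle library 4 just inside the air range, and the mitochondrial peroxidase Prdx3 fell (-0.53 ± 0.15). Sod1, cytosolic superoxide dismutase (0.63 ± 0.17), and Gstp1, a glutathione transferase (0.43 ± 0.13), rose. Of 26 genes of aldehyde and xenobiotic metabolism 2 rose and 3 fell (median -0.12, reduced fits -0.05 and 0.05). Akr1b3, aldose reductase, fell without overlap, from 189.8, 146, 148 and 166 CPM to 68.9, 90.2 and 143 CPM (-0.69 ± 0.16), and Sult1a1, a sulphotransferase, rose without overlap, from 14.9, 18.1, 26.1 and 20.1 CPM to 30.1, 35.03 and 26.6 CPM (0.63 ± 0.18). Cyp1a1, the marker of aryl hydrocarbon receptor activity, had 0 to 2 counts in each of the 23 libraries and was not tested.

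Chaperone genes had 4 of 16 lower and none higher (median -0.30, reduced fits -0.24 and -0.24), among them mitochondrial Hspd1 (-0.55 ± 0.15), at 416, 336, 332 and 347 CPM in air and 195, 219 and 321 CPM in vehicle, and Hsp90ab1 (-0.28 ± 0.10), both without overlap. Of 25 genes of the integrated stress and unfolded protein responses, Ddit3 rose (1.11 ± 0.32) and Chac1 fell (-0.95 ± 0.31), and the median was -0.07 (reduced fits -0.04 and -0.05). In the circadian list of 19 (median -0.11, reduced fits -0.05 and 0.14), Per3 and Tef rose without overlap (0.93 ± 0.24 and 0.40 ± 0.12), and Bhlhe40, a clock repressor, fell without overlap, from 165, 125, 90.6 and 161 CPM to 31.2, 71.0 and 80.2 CPM (-1.15 ± 0.23). The hour of collection is not given in the labels. In the FOXO and atrophy list (median -0.44, reduced fits -0.31 and -0.05) 3 of 17 fell, among them the ubiquitin ligase Trim63 (-0.91 ± 0.21). Of 19 cholesterol genes 4 fell and none rose (median -0.42, reduced fits -0.23 and -0.01), among them the regulator Srebf2 (-0.61 ± 0.16) and the synthesis enzyme gene Cyp51 (-0.52 ± 0.17). Of 29 cell cycle genes (median 0.14, reduced fits -0.27 and -0.08) 1 rose, Cdk2 (0.50 ± 0.13), and 1 fell, Pcna (-0.40 ± 0.13).

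Markers of cell types set the frame for these values, and of all genes tested 9.27% rose and 6.92% fell. The 8 ventricular muscle markers summed to 75268 to 91725 CPM in air and 76976 to 88176 CPM in vehicle, and 3 rose and 2 fell. Fibroblast markers (1 of 9 lower), smooth muscle and pericyte markers (0 of 9), macrophage markers (1 of 11 lower, at 288 to 367 CPM in air and 277 to 310 CPM in vehicle) and blood markers (0 of 6) had overlapping sums. Vehicle library 1 held the highest blood marker sum, 2366 CPM against 468 to 935 CPM in the other 6. Lung epithelium was near absent, with 4 of its 7 genes at 0 in all 7 libraries, and skeletal muscle markers (0 of 5 called) ranged from 2807 to 4044 CPM in air and from 2800.0 to 4730 CPM in vehicle. The skeletal list includes Ckm, which is also in the ventricular list, and Acta1, given above with the stress markers, so its sum does not measure skeletal muscle alone. In the immunoglobulin list 1 of 5 genes rose, Ighm (0.80 ± 0.27), named after its values were seen, and of 5 nerve and Schwann cell genes 1 rose. T and NK cell (0 of 2), adipocyte (0 of 5) and mesothelium markers (0 of 2) had no call.

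Mice that started vehicle at 3 months gave a separate comparison with its own controls. There edgeR called 0 genes (2200 had an unadjusted p under 0.05), DESeq2 called 86, and limma with quality weights called 2721. The difference between the 2 starting ages was tested directly, and no gene passed in edgeR (0%, 1861 unadjusted, smallest adjusted p = 0.136), with 81 in DESeq2 and 596 in limma. Col4a2 and Col4a1 were lower at the older start too, at -0.62 ± 0.13 and -0.49 ± 0.14 log2. For Upf2 the difference between ages was 0.67 ± 0.13 (adjusted p = 0.136), with -0.07 ± 0.09 at the older start. Cish had the same adjusted p, with a difference of -1.71 ± 0.30. It was at -0.99 ± 0.22 at the younger start and 0.72 ± 0.20 at the older. Pdk4 was at -0.21 ± 0.38 there, against -2.37 ± 0.44 at the younger start, and this difference did not pass (-2.16 ± 0.57, adjusted p = 0.205). Ribosomal proteins had a median of 0.34 log2 at the older start against 0.54, carnitine shuttle genes -0.21 against -0.47, beta-oxidation -0.03 against -0.36, and NF-kB targets 0.25 against -0.71.

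**Figure D4:**
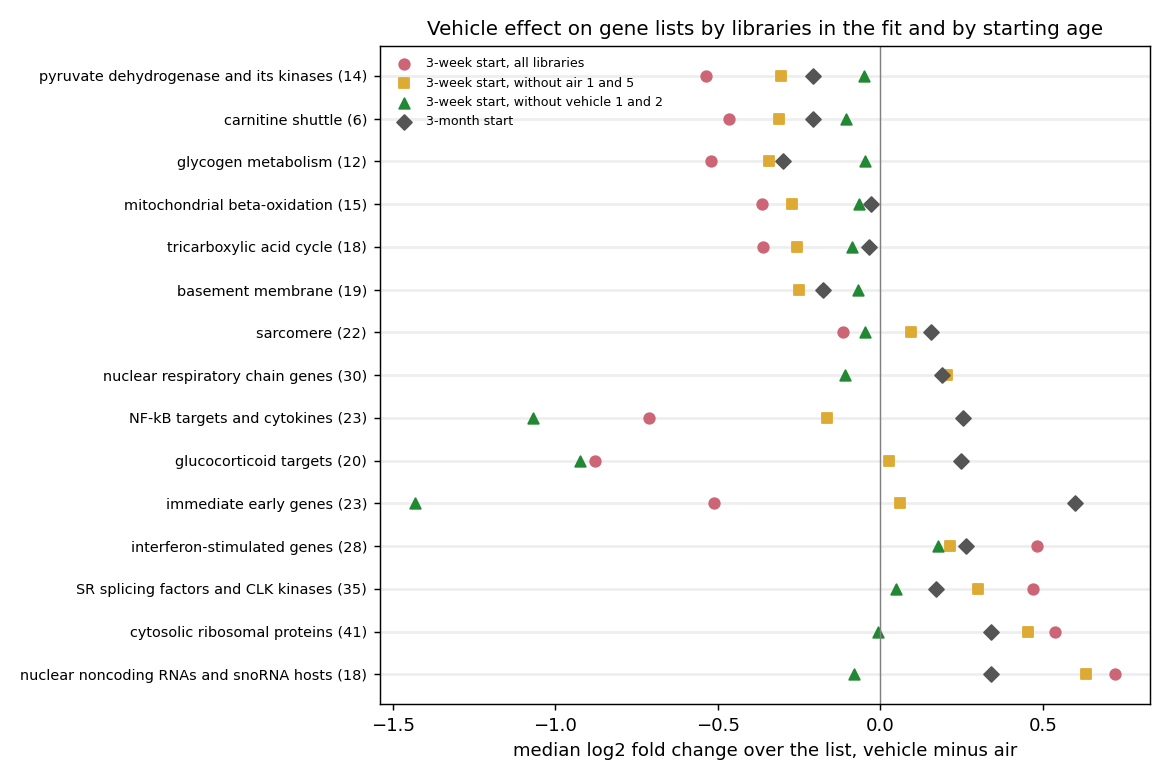
Median log2 fold change of vehicle minus air over 15 gene lists, in 4 fits. Red circles use all libraries of the 3-week start, yellow squares leave out air libraries 1 and 5, green triangles leave out vehicle libraries 1 and 2, and grey diamonds are the 3-month start. Medians of fuel genes, splicing factors, ribosomal proteins and noncoding RNAs lie near 0 without vehicle libraries 1 and 2, and those of glucocorticoid and immediate early genes near 0 without air libraries 1 and 5.

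Nicotine aerosol from 3 weeks of age was set against the same vehicle libraries, so its differences share them with those above. In nicotine against vehicle 0 genes passed in edgeR (0%, 2992 unadjusted, smallest adjusted p = 0.0593), 254 in DESeq2 and 2941 in limma with quality weights. Pdk4 was 1.95 ± 0.44 log2 higher with nicotine than with vehicle, and Cpt1b 0.67 ± 0.20, neither past the threshold. The median of nicotine minus vehicle was 0.46 over the carnitine shuttle and 0.42 over beta-oxidation, and -0.43 over ribosomal proteins and -0.44 over interferon genes. Col4a2 and Col4a1 were at 0.02 ± 0.14 and -0.04 ± 0.15 between nicotine and vehicle, within 1 SE of 0.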

How the data were processed

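RNA of the left ventricle was sequenced in 23 libraries of 6 groups. The deposited table holds raw counts of 49315 genes, whole numbers as the authors' counting gave them, and 0 columns of it belonged to no sample. The submitters' processing notes name Trimmomatic 0.36, STAR 2.5.2b, featureCounts from Subread 1.5.2, and DESeq2. The genome build, annotation and strand setting were not stated, so values of overlapping genes and close copies are uncertain. The deposited tables of other comparisons were not used here.

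The software was R 4.3.3 and edgeR 4.0.16. A low-count filter (filterByExpr, minimum count 10) left 15500 genes, TMM set the scaling, and a single robust quasi-likelihood model of the 6 groups had 17 residual degrees of freedom. Adjustment was by Benjamini-Hochberg across all genes tested, and the threshold was 0.05. Alternatives were DESeq2 1.42.0, limma 3.58.1 (voom with quality weights), RLE scaling, no filter, an exonic length offset, smaller sets of libraries, a replicate block and leaving out each library. The fits without air libraries 1 and 5 and without vehicle libraries 1 and 2 were chosen after seeing the data. The edgeR step was tested on simulated data with the same spread per gene in all groups. That test does not cover the unequal spread of the groups here. GENCODE vM21 gave types and exonic lengths for 49056 gene IDs, and RefSeq the promoter windows, matched by symbol for 11103 of the genes tested.

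The 35 pathway lists, the 15 marker lists and the naming rule were chosen with earlier results of these data known. Named by smallest p were 12 genes in each direction whose log2 CPM averaged 1 or more, up to 4 genes past the threshold per pathway list, and fixed genes (Pdk4, Col4a1, Col4a2, Myh6, Myh7, Atp2a2, Nppa, Nppb, Acta1, Ankrd1, Col1a1, Postn, Cyp1a1). Members named only as cell type markers were chosen after their values were seen. Some genes are not reported here by name.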

Additional observations from a re-analysis of the deposited data

Results flagged for a closer look

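In the air group, the gap of 1 library to the nearest other was large against the group's range for 2 of the 144 gene levels and library measures checked, and chance alone flags about 1 in 20 groups of this size. Acsl1, which activates long-chain fatty acids, was at 1186 CPM in air library 1, above 684 to 729 CPM in the other air libraries, and went from -0.87 ± 0.29 log2 with all libraries to an estimate of -0.62 without air libraries 1 and 5. The antisense RNA Kcnq1ot1 was at 8.14 CPM in air library 1, below the other air libraries, the lowest of which read 11.1 CPM, and its estimate went from 1.43 ± 0.27 to 1.29 log2.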

How the results depend on the processing

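The counts depended on the libraries in the fit. Of genes past the threshold in vehicle against air there were 1279 without the low-count filter (669 higher, 610 lower), 5840 with limma's quality weights (3093 and 2747), 3419 with DESeq2 (1560 and 1859), and 0 with the 7 libraries alone, the 11 of the 3-week start, or without the 2 libraries left out of either group. The replicate block left 0 genes in edgeR (4965 at an unadjusted p under 0.05). Same-numbered air and vehicle libraries correlated at -0.37, 0.09 and -0.13 in their deviations, and differently numbered ones at -0.25 to 0.40. With so few libraries these values cannot tell whether same-numbered libraries share more than a number. RLE scaling (2561) and the length offset (2530) stayed close to 2509 in total, but the balance of directions changed. The main fit had 1437 higher and 1072 lower, RLE scaling 1266 and 1295, and the length offset 1216 and 1314. Leaving out 1 library gave 0 to 6969 genes in all, 0 to 3300 higher and 0 to 3669 lower. For the difference between ages it gave 0 to 1472, with 81 in DESeq2 and 596 in limma, and for nicotine against vehicle 0 to 4793, with 3 without the filter, 254 in DESeq2 and 2941 in limma. The replicate block called 0 genes in both. The cause was not tested, beyond the fewer samples in some fits. Of 141 named genes 134 passed, and 133 of these lost the call with the 7 libraries alone, none changing sign. Without vehicle libraries 1 and 2 the estimate turned to -0.075 for Etfb, -0.014 for Ndufa1, -0.14 for Cox8b, -0.017 for Agrn, -0.16 for Ifi27, -0.091 for Sod1, -0.018 for Aldh9a1, -0.15 for Malat1, -0.35 for Nppa and -0.46 for Postn, and without air libraries 1 and 5 to 0.0050 for Per1, 0.033 for Nppb and 0.044 for Acta1. Nppa was at -0.0057 without the filter and -0.32 with the length offset, and Nppb at 0.56 in limma. With 1 library left out Nppa ran from -0.61 to 0.34, Nppb from -0.55 to 0.14 and Postn from -0.51 to 0.38. The mitochondrial share of counts, vehicle minus air, was -0.347 to 1.14 percentage points with 1 library left out. Depth (12994778 to 17600406 counts) limited genes such as Sele and Cxcl2, with under 12 counts in each vehicle library.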
